A study of Mus musculus with 36 samples.

Results

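The 10 genes described here, Pou5f1, Otx2, Pou3f1, Utf1, Pim2, Slc7a3, Sall2, Foxd3, Lin28a and Lin28b, are genes of the formative and primed pluripotent states. They were picked by symbol out of the 54281 genes in each deposited expression file, and all 10 were among the 21601 genes that passed the filter on low counts. RNA was measured in 36 libraries of mouse embryonic stem cells (ESCs) and their derivatives during conversion into anterior neural progenitors in a serum-free neurobasal medium. The Tet1 KO group (Tet1tm1Koh knockout lines KO1 and KO15) had 2 libraries each on days 0, 1, 2 and 4, 4 on day 3 and 3 on day 5. The Tet1 MUT group (lines CM59 and CM69, with catalytically dead TET1) had 2 libraries and the line WT70 had 1 library on each of days 3 and 5. The WT group (lines WT7 and WT34) had as many libraries on each day as the KO group. All lines were male and of a B6 by 129S6 background, KO1, KO15, WT7 and WT34 were derived from blastocysts, and the 2 MUT lines are clones derived from WT7 by Cas9-assisted repair in the catalytic domain. ESCs were kept in serum with LIF on fibroblast feeders, and basic FGF was present from day 0 to day 3. The labels call WT70 only a WT line and do not say whether it passed through a mock transfection, so it was kept apart from WT7 and WT34. Experiment 1 held days 0, 3 and 5 of the KO and WT lines, experiment 2 held days 1 to 4 of the same lines with day 5 of KO1 and WT7, and experiment 3 held all MUT and WT70 libraries. The experiments are numbered by the deposited set of expression values that holds each library. The titles mark only experiment 2, as a time course, and the labels do not say whether the sets are separate differentiations. Days 3 and 5 thus hold repeat libraries of the same lines, and the p-values measure the spread between these libraries.

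The libraries held 10139521 to 26307363 counts, with a median of 14581451. Tet1 stood at 28.9 to 83.1 CPM (counts per 1e6 counts of the library) in the KO libraries, at 158 to 320 CPM in MUT, at 170 to 254 CPM in WT70 and at 108 to 1432 CPM in WT, and the KO and WT ranges did not overlap on any day. The MUT lines carry substitutions, so the level of Tet1 does not check their label. The library of WT7 on day 1 (WT day 1 replicate 1) had the largest share of mitochondrial counts, 5.68% against a median of 1.9%. Bulk libraries cannot tell fewer cells of a type from less RNA per cell.

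Pluripotency is passed through in stages. The naive state of cultured ESCs is left on withdrawal of LIF and serum, a formative state follows in which cells gain the competence to respond to germ layer signals, and the primed state of the late epiblast precedes germ layer commitment. POU5F1 (OCT4) is the POU factor central to all of these states, and OTX2 and POU3F1 (OCT6) are factors known to work with it at enhancers that open in the formative state. UTF1 is a chromatin-bound protein of pluripotent cells, FOXD3 a forkhead factor of the epiblast and later of the neural crest, and SALL2 a zinc finger factor. PIM2 is a serine/threonine kinase that favours survival and growth, and SLC7A3 (CAT3) a cationic amino acid transporter. LIN28A and LIN28B are RNA-binding proteins that block maturation of the let-7 microRNAs, which in turn repress both Lin28 mRNAs.

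In the GRCm38 (mm10) build, all 10 are protein-coding genes. Pou5f1 lies at chr17:35506018-35510772, Otx2 at chr14:48657677-48673819, Sall2 at chr14:52311172-52328762 and Lin28b at chr10:45376620-45486395. Foxd3 (chr4:99656299-99658622), Pou3f1 (chr4:124656807-124660655) and Lin28a (chr4:134003330-134018841) share chromosome 4. Pim2 (chrX:7878262-7883432) and Slc7a3 (chrX:101079210-101086020) are X-linked, and Utf1 is at chr7:139943789-139945112. Other annotated genes overlapped 5 of the 10, among them the antisense transcripts Gm19553 at Pou5f1 and Gm2164 at Pou3f1 and the noncoding Otx2os1 at Otx2. None of the overlapping genes had more than 19 counts in a library, against at least 1274 in the highest library of each gene they overlap.

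The Pim2 promoter is shown because it holds the octamer of the POU factors in the set. Of the 10 genes, 8 had 13 promoters in all in the RefSeq table (GRCm38.p6), each taken as 250 bases before to 50 bases after a transcript start. The octamer bound by POU factors, ATGCAAAT, was searched on both strands and was present in 1 of the 13 promoters, that of Pim2, which held it at 2 places beginning 202 and 123 bases before the start. It was present in 1.74% of all 32851 promoters of the same length. The motif bound by OTX factors, TAATCC, does not overlap the octamer and was present in 1 of the promoters of Otx2 and 1 of those of Pou5f1, against 7.06% of all promoters. The Pim2 promoter (chrX:7878056-7878355, plus strand) is given with both octamers in capitals, the upstream one in its reverse complement.
Pim2: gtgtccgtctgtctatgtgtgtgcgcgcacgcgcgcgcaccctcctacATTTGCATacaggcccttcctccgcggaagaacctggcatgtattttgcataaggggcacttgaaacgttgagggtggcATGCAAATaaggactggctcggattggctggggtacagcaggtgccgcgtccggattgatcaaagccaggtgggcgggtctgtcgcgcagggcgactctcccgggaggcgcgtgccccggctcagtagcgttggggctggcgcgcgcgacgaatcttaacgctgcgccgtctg
A match is a description of these letters and not a measured binding site.

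The let-7 sites of Lin28a and Lin28b are shown because LIN28 and let-7 repress each other. The mature let-7a is encoded among other places at chr13:48538239-48538260 (minus strand), and its seed, bases 2 to 8, is in capitals.
mmu-let-7a-5p: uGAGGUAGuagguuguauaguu
The complement of this seed, CTACCTC, was present in 12% of the 15694 tested genes with an annotated 3′ UTR. It was absent from the longest 3′ UTR of the other 8 genes of the set. Lin28a had 2 matches in 2775 bases and Lin28b 4 matches in 4445 bases. The following sites, on the minus strand at chr4:134005189-134005210, chr4:134004551-134004572 and chr10:45381022-45381043, are those whose match is followed by an A, with the match in capitals.
Lin28a, the first: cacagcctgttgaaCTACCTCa
Lin28a, the second: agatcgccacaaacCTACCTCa
Lin28b: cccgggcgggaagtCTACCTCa
Mature let-7 was not measured in these libraries.

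Per transcript length, the order of the 10 genes differed between the first and the last day. In TPM (transcript counts corrected for length and library), Pou5f1 was the highest on day 0, with 555 ± 26.5 in KO and 607 ± 20.9 in WT (SD, n = 2 each). Sall2 was the lowest, with 0.683 ± 0.012 TPM in KO and 0.573 ± 0.053 TPM in WT. On day 3 the order in WT ran Pou5f1 at 531 ± 46.3, Pim2 at 246 ± 25.4, Slc7a3 at 203 ± 39.2 and Lin28a at 155 ± 14.6 TPM (SD, n = 4), followed by Utf1, Otx2, Pou3f1, Lin28b, Sall2 and Foxd3 down to 10.0 ± 5.75 TPM. The libraries of Pim2 and Slc7a3, of Slc7a3 and Lin28a, of Lin28b and Sall2 and of Sall2 and Foxd3 overlapped, and the other neighbours in the WT order did not. In KO on day 3 Pou5f1 was again the highest at 623 ± 33.6 TPM and Foxd3 the lowest at 4.35 ± 2.53 TPM (SD, n = 4). On day 5 Lin28a was the highest in every group, with 176 ± 11.4 TPM in KO (n = 3), 148 ± 5.63 in MUT (n = 2), 151 in WT70 and 169 ± 3.58 in WT (SD, n = 3).

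The question of the time course was when each gene appears and disappears as neural progenitors form, and whether KO cells keep that timing. The change from each day to the next was tested with edgeR's quasi-likelihood test with Benjamini-Hochberg adjustment over all 21601 genes, and a gene is said to have risen or fallen where that p was under 0.05 and the log2 fold change lay beyond 1. Values after a log2 fold change are standard errors (SE). Between day 0 and day 1, 7 of the 10 genes rose in KO, where 4.36% of all tested genes rose and 10.4% fell. In WT 5 of the 10 rose, where 4.68% of all genes rose and 7.96% fell. None of the 10 fell in either. The median log2 fold change of the 10 was 2.27 in KO and 1.85 in WT, against −0.06 and −0.02 over all tested genes.

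Pou3f1 made the largest step among the 10. Its level was 8.9 and 8.48 CPM on day 0, 281 and 276 CPM on day 1 and 275 and 331 CPM on day 2 in KO, and 14.9 and 12.4 CPM, 173 and 309 CPM, and 367 and 315 CPM on the same days in WT. Its log2 fold change from day 0 to day 1 was 5.36 ± 0.26 in KO (adjusted p = 5.5e-14) and 4.51 ± 0.24 in WT (adjusted p = 1.06e-12). The libraries of day 1 stood far above those of day 0 in both genotypes.
Otx2, the homeobox factor of the formative enhancers, had 4.41 and 4.24 CPM on day 0, 134 and 143 CPM on day 1 and 120 and 126 CPM on day 2 in KO, and 9.67 and 13.2 CPM, 130 and 143 CPM, and 149 and 132 CPM in WT. It rose by 4.98 ± 0.36 on the log2 scale in KO (adjusted p = 1.33e-10) and by 3.53 ± 0.32 in WT (adjusted p = 1e-08). In both genotypes the libraries of days 1 and 2 stood far above those of day 0.
The kinase gene Pim2 had 36.2 and 32.1 CPM on day 0, 490 and 514 CPM on day 1 and 619 and 692 CPM on day 2 in KO, and 67.6 and 57.5 CPM, 442 and 593 CPM, and 772 and 724 CPM in WT. It rose by 4.10 ± 0.19 in KO (adjusted p = 3.58e-14) and by 3.27 ± 0.18 in WT (adjusted p = 1.49e-12). Sall2 had 7.4 and 7.38 CPM on day 0, 146 and 160 CPM on day 1 and 186 and 211 CPM on day 2 in KO, and 6.72 and 5.92 CPM, 84.2 and 117 CPM, and 184 and 165 CPM in WT. Its rise was 4.35 ± 0.23 in KO (adjusted p = 5.3e-13) and 3.99 ± 0.24 in WT (adjusted p = 6.02e-12). Day 0 and day 1 did not overlap in any of the 10 genes in either genotype, those without a passing step included. The share of all tested genes without overlap is not given here.

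Foxd3 had 69.8 and 70.7 CPM on day 1 and 29.6 and 24.8 CPM on day 0 in KO. In WT it had 43.0 and 59.2 CPM on day 1 and 19.2 and 19.9 CPM on day 0. It rose by 2.80 ± 0.21 in KO (adjusted p = 2.07e-10) and by 2.82 ± 0.21 in WT (adjusted p = 3.25e-10). These values rest on the experiment term, because every day 0 library was in experiment 1 and every day 1 library in experiment 2, and the term was estimated on days 3 and 5 alone. Without that term the rise of Foxd3 was 1.37 in KO (adjusted p = 0.024) and 1.38 in WT (adjusted p = 0.0268).
Slc7a3 and Lin28a passed the test in KO, with 1.74 ± 0.15 (adjusted p = 3.22e-09) and 1.44 ± 0.09 (adjusted p = 1.91e-11). In WT their log2 fold changes were 0.88 ± 0.15 and 0.82 ± 0.09, below the threshold of 1, and without WT day 1 replicate 1, the library rich in mitochondrial counts, Slc7a3 passed at 1.05 (adjusted p = 4.15e-05). The difference between the KO and the WT step was not tested. Slc7a3 had 409 and 369 CPM on day 1 and 162 and 142 CPM on day 0 in KO, and 219 and 276 CPM on day 1 and 176 CPM in both libraries of day 0 in WT.
Pou5f1, Utf1 and Lin28b made no step that passed. Their log2 fold changes from day 0 to day 1 were 0.45 ± 0.21, 0.95 ± 0.23 and 0.22 ± 0.21 in KO and −0.11 ± 0.21, 0.75 ± 0.23 and 0.11 ± 0.21 in WT. Pou5f1 had 1000 and 913 CPM on day 1 in KO, against 567 and 874 CPM in WT, the lowest value being WT day 1 replicate 1.

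**Figure D1:**
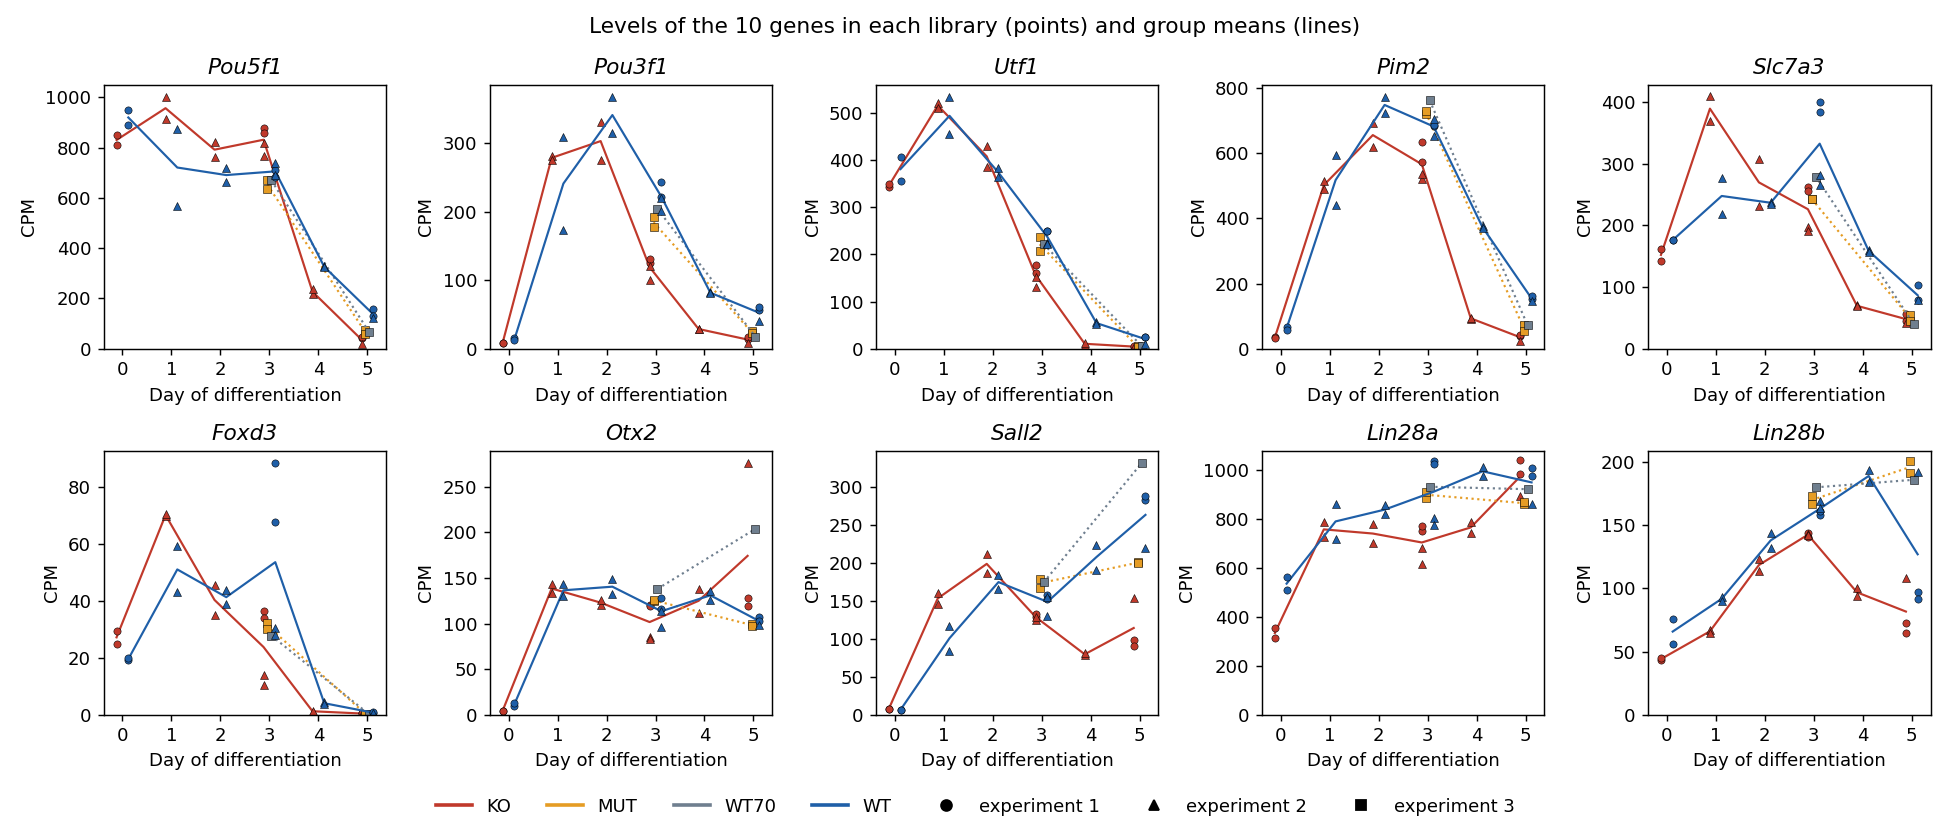
CPM of each gene (vertical axis) by day of differentiation (horizontal axis) in KO, MUT, WT70 and WT, with 1 point per library, shaped by experiment, and lines through the group means. Pou3f1, Pim2, Otx2 and Sall2 stand near the floor on day 0, and on day 5 Pou5f1, Pou3f1, Utf1, Pim2, Slc7a3 and Foxd3 are below their day 3 levels while Otx2, Sall2, Lin28a and Lin28b stay far above the floor.

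From day 1 to day 2 none of the 10 genes passed in either genotype. Across all tested genes 9.93% rose and 3% fell in KO, and 9.22% rose and 3.61% fell in WT. At an unadjusted p under 0.05, 5 of the 10 genes differed in KO and 5 in WT, DESeq2 called none, and limma called Sall2 in WT. The share of all tested genes at that unadjusted cut is not given here, so these counts cannot be set against a background. Sall2 came nearest in WT, with 0.79 ± 0.17 (adjusted p = 9e-04), and it passed at 1.05 without WT day 1 replicate 2. Foxd3 came near in KO with −0.80 ± 0.17, and it passed at −1.01 without KO day 2 replicate 2. Lin28b, which had made no step on day 1, had log2 fold changes of 0.84 ± 0.18 in KO and 0.59 ± 0.18 in WT.

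The day of the highest mean level fell before day 4 for 8 of the 10 genes in KO, with 4 peaking on day 1 (Pou5f1, Utf1, Slc7a3, Foxd3), 3 on day 2 (Pou3f1, Pim2, Sall2) and 1 on day 3 (Lin28b). Otx2 and Lin28a were highest on day 5 in KO. In WT, Pou5f1 was highest on day 0, Utf1 on day 1, Otx2, Pou3f1 and Pim2 on day 2, Slc7a3 and Foxd3 on day 3, Lin28a and Lin28b on day 4 and Sall2 on day 5. The peak over day 0 was 40.3-fold for Otx2, 34.9-fold for Pou3f1, 26.8-fold for Sall2 and 19.2-fold for Pim2 in KO, and 12.3-fold, 25-fold, 41.6-fold and 12-fold in WT. Peak days are descriptions, and some rest on 1 library. The means were not adjusted for experiment, and the days differ in it. Day 0 was in experiment 1, days 1, 2 and 4 in experiment 2 and days 3 and 5 in both. Foxd3 in WT had a mean of 78.1 CPM on day 3 in experiment 1 and 29.25 CPM in experiment 2. Its WT means of 51.09 CPM on day 1 and 41.36 CPM on day 2, both in experiment 2, lay above the latter. Without KO day 5 replicate 3 the peak of Otx2 in KO moved to day 1, and without KO day 2 replicate 2 that of Pou3f1 did. Without WT day 1 replicate 1 or WT day 2 replicate 1 the peak of Otx2 in WT moved to day 1, and without WT day 1 replicate 1, WT day 3 replicate 1 or WT day 3 replicate 2 that of Foxd3 did.

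The 6 genes that later left, Pou5f1, Pou3f1, Utf1, Pim2, Slc7a3 and Foxd3, first passed as falling in different steps. From day 2 to day 3, 3 of the 10 fell in KO and none passed in WT. The background was 2.29% higher and 2.6% lower in KO, and 2.6% higher and 2.08% lower in WT. In WT 5 of the 10 had an unadjusted p under 0.05 and 3 an adjusted p under 0.05, counts without a background at these cuts. DESeq2 and limma also called none. Here and in the later day-to-day steps, the difference between the KO and the WT step was not tested. The KO genes were Pou3f1 (−1.53 ± 0.16, adjusted p = 4e-07), Utf1 (−1.59 ± 0.18, adjusted p = 6.4e-07) and Foxd3 (−1.66 ± 0.16, adjusted p = 6e-08), with WT values of −0.80 ± 0.16, −0.84 ± 0.18 and −0.51 ± 0.16. Foxd3 did not pass in KO without the experiment term (−0.77, adjusted p = 0.224) or with the libraries of a line and day summed (−0.85), and its day 3 and day 2 libraries overlapped. On day 3 Utf1 had 160, 178, 131 and 153 CPM in KO, against 250, 250, 225 and 222 CPM in WT, and no KO library reached a WT library.

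From day 3 to day 4, 6 of the 10 genes fell in KO and 3 in WT, with 5.93% of all genes falling and 5.22% rising in KO and 2.86% falling and 2.5% rising in WT. The 6 in KO were Pou5f1 (−1.75 ± 0.18), Pou3f1 (−1.87 ± 0.19), Utf1 (−3.71 ± 0.23), Pim2 (−2.49 ± 0.15), Slc7a3 (−1.49 ± 0.13) and Foxd3 (−3.40 ± 0.24), at adjusted p-values of 4.8e-08 or smaller. In WT Pou3f1 (−1.26 ± 0.18), Utf1 (−1.94 ± 0.20) and Foxd3 (−2.85 ± 0.20) fell. Pou5f1 stood at the edge in WT (−0.999 ± 0.17) and passed with the cell line as replicate block (−1.003, adjusted p = 0.000397), in experiment 2 alone (−1.11) and without any of WT day 3 replicate 1, WT day 3 replicate 2 and WT day 4 replicate 1 (−1.01 to −1.04). Without the experiment term, or with the libraries of a line and day summed, 5 genes passed in WT, Slc7a3 and Pou5f1 being the added ones. Pim2 had 91.2 and 94.8 CPM on day 4 in KO, against 376 and 369 CPM in WT.

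From day 4 to day 5, 5 of the 10 fell in each genotype. The background was 3.05% falling and 4.17% rising in KO, and 1.44% falling and 1.23% rising in WT. Pou5f1 fell by 2.82 ± 0.19 on the log2 scale in KO (adjusted p = 2.2e-10), and by 1.42 ± 0.18 in WT (adjusted p = 1.7e-05). Pim2 fell by 1.54 ± 0.16 in KO and 1.42 ± 0.15 in WT, and Utf1 and Foxd3 also fell in both. Pou3f1 fell in KO (−1.35 ± 0.21) and had −0.90 ± 0.19 in WT, whereas Slc7a3 fell in WT (−1.13 ± 0.13) and had −0.80 ± 0.13 in KO. In limma on log2(TPM + 1), 3 genes passed in KO, Pou3f1 and Foxd3 dropping out. In KO, Foxd3 did not pass without the experiment term (−1.49, adjusted p = 0.282), nor Pou3f1 with summed libraries (−0.95). In WT, Slc7a3 did not pass without the experiment term (−0.87) or with summed libraries (−0.87). In experiment 2 alone, with 1 WT library on day 5, Slc7a3 was at −0.998 and Pou3f1 at −1.01.
By day 5 Foxd3 was close to the detection limit, with 0.665, 0.415 and 0.0937 CPM in KO, 0.318 and 0.192 in MUT, 0.0556 in WT70 and 0.606, 0.927 and 0.54 in WT, from 1 to 12 counts per library. Fold changes of Foxd3 against these groups therefore carry a large counting error. In WT70 the single count of day 5 against 541 on day 3 gave a ratio of 0.002 (95% interval 5.06e-05 to 0.0112, counting error only).

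**Figure D2:**
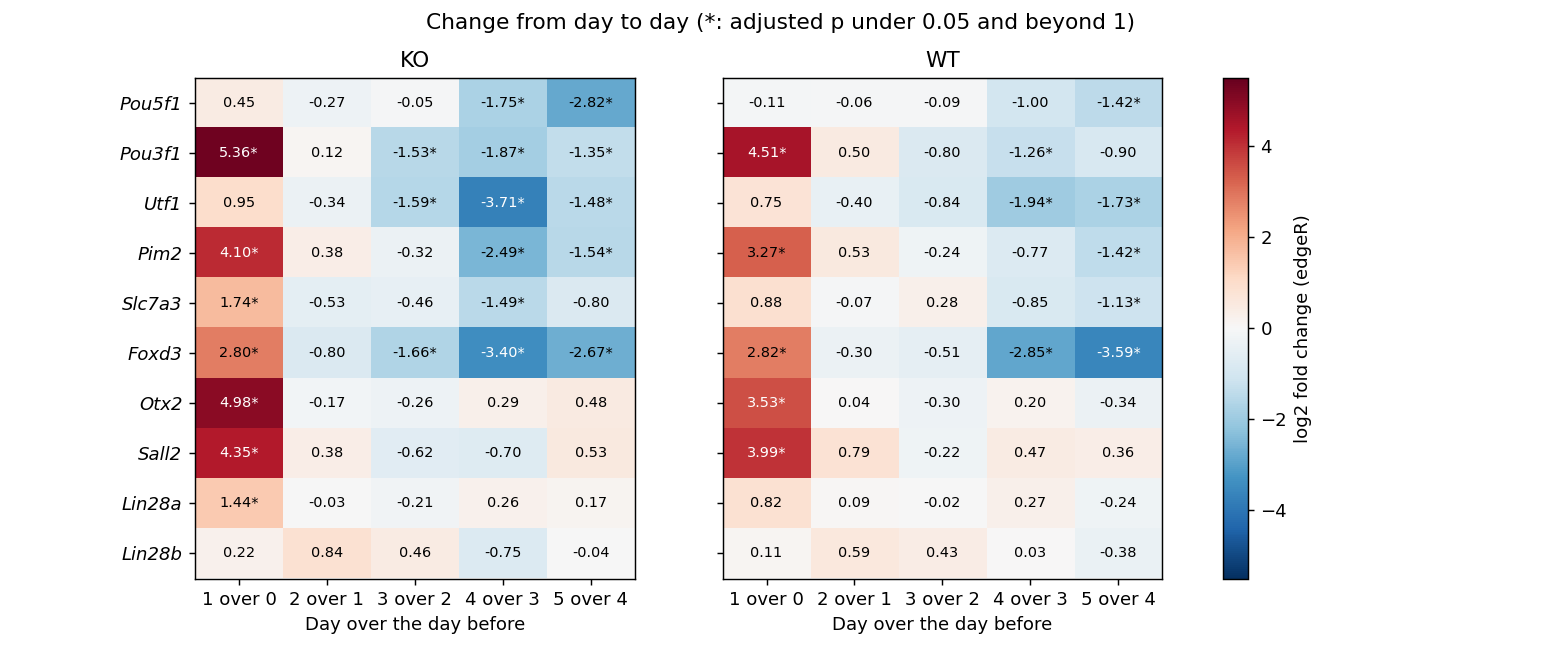
Log2 fold change of each gene (rows) from each day to the next (columns) in KO (left) and WT (right), with colour for direction and size and asterisks at values that passed. The first column is red for most genes, reaching 5.36 for Pou3f1 in KO, and the asterisks of the last 2 columns all stand in the upper 6 rows.

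The other 4 genes, Otx2, Sall2, Lin28a and Lin28b, passed neither from day 3 to day 4 nor from day 4 to day 5 in KO or WT, nor from day 3 to day 5 in MUT or WT70. In experiment 2 alone the value of Otx2 from day 4 to day 5 in KO was 1.14, from 1 library on day 5, with 276 CPM, and 2 on day 4. Between day 3 and day 5 the 6 declining genes fell in MUT, where 8.8% of all genes rose and 8.59% fell, and in WT70, where 5.25% rose and 7% fell. Day 5 levels in percent of day 3 were 171% in KO, 78.6% in MUT, 148% in WT70 and 90.5% in WT for Otx2, and 88.9%, 115%, 190% and 177% in the same groups for Sall2. For Pou5f1 they were 4.37%, 10.1%, 9.71% and 19.4%, and for Utf1 2.87%, 1.82%, 2.58% and 8.54%.
Lin28a had 1040, 980 and 891 CPM on day 5 and 748, 769, 615 and 678 CPM on day 3 in KO, and 1008, 974 and 861 CPM on day 5 and 1036, 1024, 803 and 775 CPM on day 3 in WT. In both genotypes the day 3 libraries of experiment 2 were the lower ones. Lin28b had 64.4, 72.5 and 108 CPM on day 5 and 141, 144, 143 and 142 CPM on day 3 in KO, and 97.1, 91.9 and 192 CPM on day 5 and 158, 161, 169 and 164 CPM on day 3 in WT. The highest day 5 value of Lin28b in each genotype was the library of experiment 2.

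Set against WT on each day, the KO lines had at most 1 of the 10 genes past the threshold on days 0 to 3. On day 0, 1 of the 10 genes passed and was lower in KO, where 0.569% of all genes were higher and 0.296% lower. The median log2 fold change of the 10 on that day was −0.40, against 0.01 over all tested genes. The gene that passed was Otx2, at −1.42 ± 0.37 (adjusted p = 0.027), on the day when it is barely expressed. It did not pass without KO day 0 replicate 1 (adjusted p = 0.122), KO day 0 replicate 2 (0.177) or WT day 0 replicate 2 (0.278). Pim2 (−0.87 ± 0.16, adjusted p = 0.0022) and Lin28a (−0.68 ± 0.08, adjusted p = 1.3e-05) were below the threshold on fold change, with 352 and 314 CPM of Lin28a in KO, against 507 and 562 CPM in WT.
On days 1 and 2 none of the 10 genes passed. The background was 0.292% higher and 0.343% lower on day 1, and 0.417% higher and 0.199% lower on day 2. At an unadjusted p under 0.05, 5 genes differed on day 1 and 1 on day 2, counts without a background at that cut. DESeq2 and limma also called none. The largest value was that of Slc7a3 on day 1 (0.65 ± 0.13, adjusted p = 0.0065).

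On day 3, 1 of the 10 genes was lower in KO, with a background of 2.09% higher and 1.87% lower. Foxd3 had 36.6, 33.9, 10.6 and 14.1 CPM in KO, against 88.4, 67.7, 30.5 and 28.0 CPM in WT, a log2 fold change of −1.19 ± 0.12 (adjusted p = 9.7e-08). Within each genotype the first 2 values are experiment 1 and the last 2 experiment 2, so the groups overlapped over the experiments and not within them. The fold change was −1.15 in experiment 1 alone (adjusted p = 7.66e-05) and −1.21 in experiment 2 alone (adjusted p = 0.00111). Against WT70, with 27.8 CPM in experiment 3, the value of Foxd3 turned to 0.31 (adjusted p = 0.354), and against all WT lines it was −0.69.
Pou3f1 was next, with 125, 131, 100 and 120 CPM in KO, against 244, 222, 220 and 201 CPM in WT, and −0.90 ± 0.13 (adjusted p = 1.9e-05) stayed short of the threshold. Utf1 (−0.61 ± 0.14), Slc7a3 (−0.55 ± 0.09) and Lin28a (−0.37 ± 0.06) also had adjusted p-values under 0.05 with small changes.

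On day 4 the difference covered most of the set. In KO 6 of the 10 genes were lower and none higher, with a background of 4.28% lower and 3.4% higher, and the median log2 fold change of the 10 was −1.29 against 0.00 over all genes. Utf1 had 8.82 and 12 CPM in KO, against 55.7 and 52.9 CPM in WT (−2.39 ± 0.24, adjusted p = 5.6e-08). Pim2 was at −2.0 ± 0.16 (adjusted p = 1.2e-09). Pou3f1 had 28.2 and 29.2 CPM in KO, against 82.2 and 81.1 CPM in WT (−1.51 ± 0.20, adjusted p = 4.6e-06). In each of these the KO libraries lay below both WT libraries.
Foxd3 (−1.74 ± 0.29, adjusted p = 8.7e-05), Slc7a3 (−1.19 ± 0.14, adjusted p = 5.3e-07) and Sall2 (−1.38 ± 0.18, adjusted p = 2.5e-06) completed the 6. Sall2 had 78.1 and 80.8 CPM in KO, against 224 and 191 CPM in WT. Foxd3 did not pass without the experiment term (adjusted p = 0.112) or in limma (−0.53, adjusted p = 0.263). Pou5f1 had 217 and 236 CPM in KO, against 327 and 324 CPM in WT, and −0.52 ± 0.19 did not pass (adjusted p = 0.058). Lin28b was just short at −0.96 ± 0.18 and passed at −1.01 without KO day 4 replicate 1. Day 4 was measured in experiment 2 only.

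On day 5, 5 of the 10 genes were lower in KO and none higher, with a background of 5.73% lower and 5.99% higher. Pou5f1 had 43.1, 45.4 and 20.4 CPM in KO, against 157, 131 and 122 CPM in WT (−1.92 ± 0.16, adjusted p = 1.3e-09). Pim2 had 40.3, 42.8 and 23.4 CPM in KO, against 154, 163 and 146 CPM in WT (−2.13 ± 0.13, adjusted p = 7.4e-12). Pou3f1 had 14.8, 17.4 and 7.78 CPM in KO, against 56.2, 60.6 and 40.0 CPM in WT (−1.96 ± 0.18, adjusted p = 3.3e-09). In all of them the groups stood apart, and the lowest KO value was the library of experiment 2.
Utf1 had 3.46, 5.51 and 4.40 CPM in KO, against 25.1, 25.8 and 9.78 CPM in WT (−2.15 ± 0.22, adjusted p = 4.6e-08). Sall2 had 98.2, 91.0 and 153 CPM in KO, against 282, 288 and 219 CPM in WT (−1.21 ± 0.14, adjusted p = 2.8e-07). Within experiment 1 alone the 5 genes were at −1.58 (Sall2) to −2.47 (Utf1), all past the threshold. In experiment 2 alone, which had 1 library of KO1 and 1 of WT7 on day 5, the values were −2.58 for Pou5f1, −2.36 for Pou3f1, −2.64 for Pim2, −1.15 for Utf1 and −0.51 for Sall2.
Otx2 went the other way, with 128, 119 and 276 CPM in KO, against 107, 103 and 97.9 CPM in WT. The value of 0.75 ± 0.21 (adjusted p = 0.0065) did not pass. It was 0.24 in experiment 1 alone and 1.50 in experiment 2 alone, between 1 library of each group, and it passed at 1.01 without KO day 5 replicate 2. Lin28a did not differ detectably (0.04 ± 0.07, adjusted p = 0.76), and Lin28b was at −0.62 ± 0.15. Slc7a3 had 45.5, 56.8 and 41.5 CPM in KO, against 103, 78.6 and 78.2 CPM in WT, and did not pass. Foxd3 did not pass either.

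**Figure D3:**
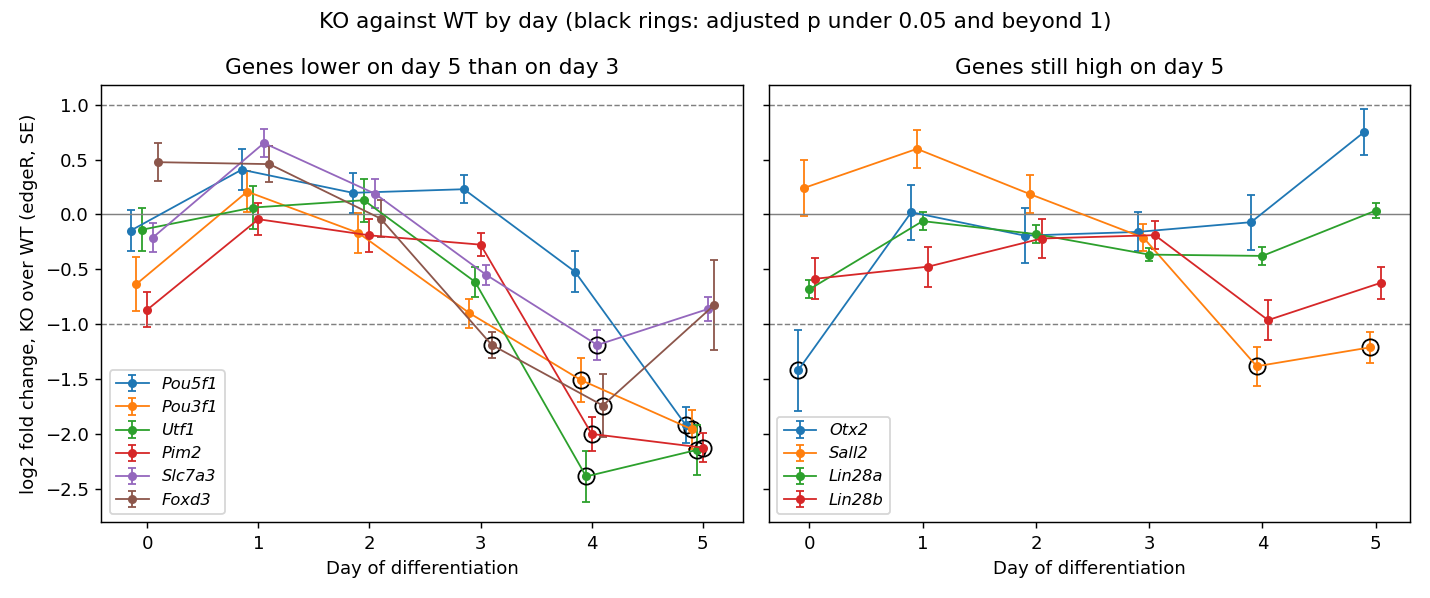
Log2 fold change of KO over WT with its SE (vertical axis) on each day (horizontal axis), for the 6 declining genes (left) and the 4 others (right), with black rings at values that passed. The values of days 1 and 2 stay between −1 and 1, and on days 4 and 5 Utf1 and Pim2 lie at −2 or lower.

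The loss of 4 genes between day 3 and day 5 was larger in KO than in WT by the test of the difference itself. The background of that test was 5.18% positive and 4.25% negative. Pou5f1 differed by −2.15 ± 0.21 (adjusted p = 3.4e-08), Pim2 by −1.85 ± 0.17 (adjusted p = 1.1e-08), Utf1 by −1.53 ± 0.27 (adjusted p = 0.00012) and Pou3f1 by −1.06 ± 0.22 (adjusted p = 0.00073). In experiment 1 alone they were at −2.01, −1.74, −1.91 and −0.98, and in experiment 2 alone at −2.76, −2.30, −0.52 and −1.45, where experiment 2 had 1 library of each genotype on day 5, and Pou3f1 did not pass in experiment 1. Pou3f1 also lost its call without KO day 5 replicate 3 (−0.87) or KO day 3 replicate 4 (−0.98), and with the libraries of a line and day summed (−0.99). In limma on log2(TPM + 1) only Pou5f1 and Pim2 passed. With all WT lines as controls Utf1 (−0.99) and Pou3f1 (−0.60) missed the threshold, and with WT70 alone Pim2 (−0.63) did too, with Utf1 at 0.081 and Pou3f1 at 0.31.
Sall2 stood at the threshold (−0.9995 ± 0.19, adjusted p = 0.00026) and passed with the cell line as replicate block (−1.003, adjusted p = 0.000811), in experiment 1 alone (−1.34) and without any of 8 single libraries (−1.01 to −1.31). These were KO day 3 replicates 1, 3 and 4, KO day 5 replicate 3, WT day 3 replicates 1, 2 and 3 and WT day 5 replicate 3. Otx2 was at 0.91 ± 0.27 and passed at 1.11 without KO day 5 replicate 1 and at 1.15 without KO day 5 replicate 2. For Slc7a3 (−0.31 ± 0.14), Foxd3 (0.36 ± 0.45), Lin28a (0.40 ± 0.09) and Lin28b (−0.43 ± 0.19) the KO and WT changes did not differ past the threshold.

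Markers of other fates moved with these differences. The summed level of 10 primitive streak and mesendoderm markers was 471 to 763 CPM in the KO libraries of day 3, against 29.8 to 73.1 CPM in WT. It was 923 CPM in both KO libraries, against 139 to 170 CPM in WT, on day 4, and 510 to 548 CPM in KO, with WT at 38.1 to 201 CPM, on day 5. Of the 10, 5 were higher in KO on day 3, 10 on day 4 and 9 on day 5, among them Foxa2, with mean levels on day 5 of 55.7 CPM in KO and 9.49 CPM in WT. The 7 neural progenitor markers summed to 321 to 415 CPM in the KO libraries of day 3, against 476 to 650 CPM in WT, to 190 CPM in both KO libraries of day 4, against 399 to 413 CPM in WT, and to 134 to 180 CPM in the KO libraries of day 5, against 364 to 396 CPM in WT. On days 3, 4 and 5, 3, 4 and 5 of the 7 were lower in KO. Over all tested genes 2.09%, 3.4% and 5.99% were higher and 1.87%, 4.28% and 5.73% lower in KO on these days. None of the markers was without counts in a KO or WT group on these days. Their part in the levels of the 10 genes was not tested.

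Catalytically dead TET1 was compared with WT70 of the same experiment on days 3 and 5. WT70 had 1 library a day, whose spread was taken to be that of the other groups. On day 3 none of the 10 genes passed, with a background of 0.0463% higher and 0.102% lower in MUT. None had an unadjusted p under 0.05, and DESeq2 and limma called none. All log2 fold changes lay between −0.20 (Slc7a3) and 0.17 (Foxd3).
On day 5, 1 gene was lower in MUT and none higher, with a background of 0.611% lower and 1.26% higher. Otx2 had 100 and 96.9 CPM in MUT, against 204 CPM in WT70 (−1.05 ± 0.30, adjusted p = 0.0497). It did not pass with the cell line as replicate block (adjusted p = 0.0685), without the experiment term (0.0731), in DESeq2 (0.0513), in limma (0.172), or without MUT day 5 replicate 1 (0.165) or MUT day 5 replicate 2 (0.204). Sall2 had 201 and 199 CPM in MUT, against 331 CPM in WT70 (−0.73 ± 0.20, adjusted p = 0.047). Pou5f1 had 73.7 and 57.7 CPM in MUT and 64.9 CPM in WT70 (0.016 ± 0.24), and Pim2 73.6 and 54.0 CPM in MUT and 71.7 CPM in WT70 (−0.17 ± 0.19), so that the WT70 library lay between the MUT libraries in both. Foxd3 rested on 10 counts in MUT and 1 in WT70, a ratio of 4.53 (95% interval 0.645 to 197, counting error only). The streak markers summed to 293 to 306 CPM in MUT and 110 CPM in WT70 on day 5, with 2 of 10 higher in MUT, and the neural progenitor markers to 369 to 414 CPM in MUT and 349 CPM in WT70, and their part was not tested.

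The choice of WT lines mattered on day 5. WT70 itself was below WT7 and WT34 in 6 of the 10 genes on day 5 (2.19% of all genes lower, 1.43% higher) and in Foxd3 on day 3 (0.264% lower, 0.315% higher), a comparison in which line and experiment differ together and cannot be told apart. On day 5 these were Pou5f1 (−1.15 ± 0.24), Pou3f1 (−1.67 ± 0.26), Utf1 (−1.89 ± 0.32), Pim2 (−1.18 ± 0.19), Slc7a3 (−1.24 ± 0.17) and Foxd3 (−3.83 ± 0.84), the last from 1 count in WT70 and 28 counts in WT. Otx2 was at 0.99 ± 0.28 with 204 CPM in WT70, a level that KO day 5 replicate 3 also exceeded.
With WT7 and WT34 as controls, 5 genes were lower in MUT on day 5, Pou5f1 (−1.14), Pou3f1 (−1.21), Utf1 (−2.41), Pim2 (−1.35) and Foxd3 (−1.80), and Otx2 was not (−0.06). The share of all tested genes that passed is not given here for this or the next choice of controls. These counts therefore cannot be set against a background. With WT70 as the control of KO, 3 genes passed on day 5. Of these only Sall2 (−1.55) is among the 5 above, Lin28b (−1.34) passed as well, and Foxd3 was positive (3.00, adjusted p = 0.0173) against the single count of WT70. Pou5f1 (−0.77, adjusted p = 0.00889) and Pim2 (−0.95, adjusted p = 0.000173) then missed the fold threshold, and Pou3f1 (−0.29, adjusted p = 0.417) and Utf1 (−0.25, adjusted p = 0.631) had adjusted p-values above 0.05.

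**Figure D4:**
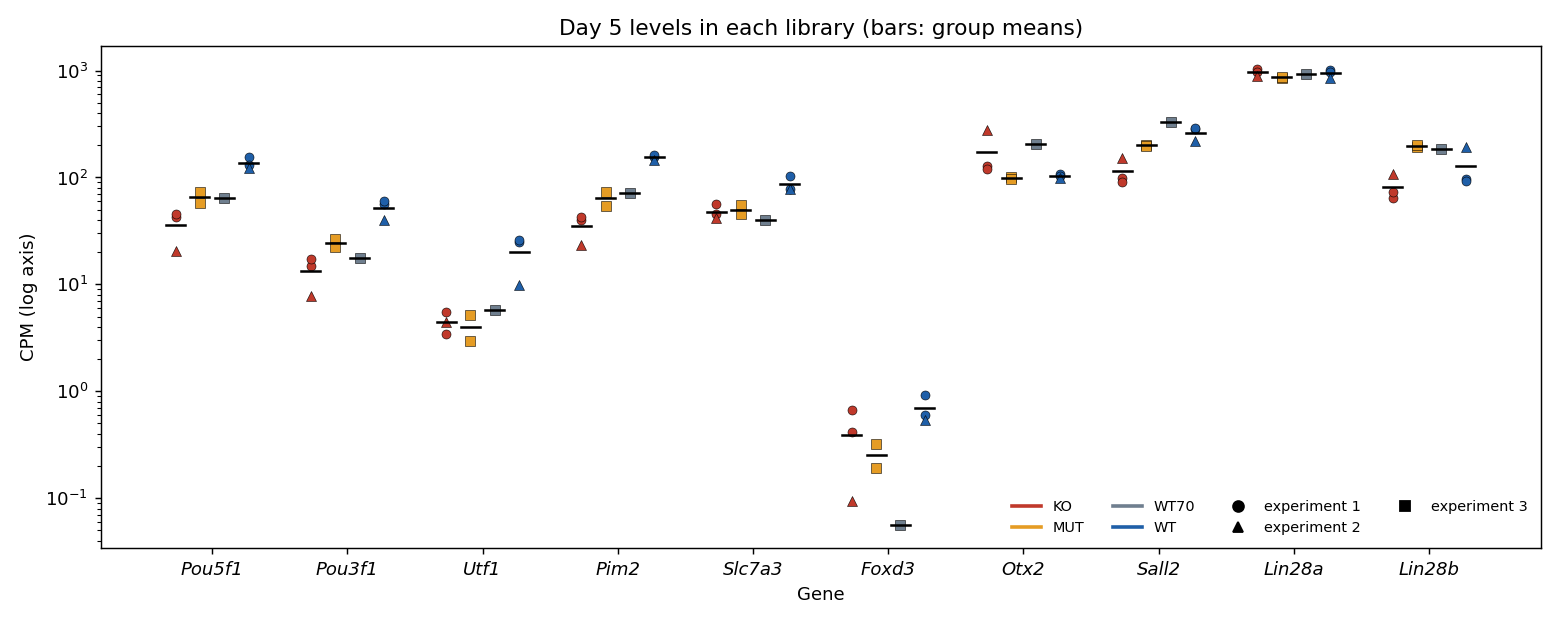
Day 5 CPM on a log axis (vertical) of each gene (horizontal) in KO, MUT, WT70 and WT, with 1 point per library, shaped by experiment, and bars at group means. Pou5f1 lies at 20.4 to 45.4 CPM in KO, 57.7 to 73.7 in MUT, 64.9 in WT70 and 122 to 157 in WT, and Lin28a at 859 to 1040 CPM over all 4.

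The KO effect (against WT7 and WT34) was set against the MUT effect (against WT70) as a difference. On day 3 only Foxd3 differed, by −1.36 ± 0.24 (adjusted p = 0.00495), with a background of 0.167% negative and 0.227% positive. It did not pass without the experiment term (adjusted p = 0.799), and with WT7 and WT34 as controls of both the value was 0.14 (adjusted p = 0.62).
On day 5, 5 of the 10 differences were negative and 1 positive, with a background of 2.48% negative and 1.14% positive. They were Pou3f1 (−2.42 ± 0.32, adjusted p = 2e-05), Pim2 (−1.96 ± 0.24), Pou5f1 (−1.94 ± 0.30), Utf1 (−1.63 ± 0.42, adjusted p = 0.02), Slc7a3 (−1.18 ± 0.21) and, positive, Otx2 (1.80 ± 0.36, adjusted p = 0.0022). Utf1 did not pass without KO day 5 replicate 1 (−1.39, adjusted p = 0.0605) or MUT day 5 replicate 1 (−1.17, adjusted p = 0.197), without the experiment term (adjusted p = 0.0536) or with the compared libraries only (adjusted p = 0.172). With all WT lines as controls of MUT, Utf1 (−0.37, adjusted p = 0.455) and Slc7a3 (−0.35, adjusted p = 0.0686) did not pass and Lin28b did (−1.18, adjusted p = 2.42e-05). With WT7 and WT34 as controls of both, only Lin28b passed (−1.42, adjusted p = 4.14e-07), Pou3f1, Pim2 and Pou5f1 were at −0.75, −0.78 and −0.79, and Utf1 (0.26), Slc7a3 (0.06) and Foxd3 (0.97) had no negative value. Otx2 was then at 0.81, below the threshold.

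Other genes of the formative and primed states, 18 in a list that shares no gene with the 10, moved in both directions at the start. From day 0 to day 1, 9 rose and 2 fell in KO and 7 rose and 3 fell in WT, where 4.36% of all genes rose and 10.4% fell in KO and 4.68% rose and 7.96% fell in WT. The median log2 fold change of the 18 was 0.81 in KO and 0.83 in WT. The methyltransferase genes Dnmt3b, with mean levels of 2685 CPM on day 1 and 445 CPM on day 0 in KO and 2855 CPM and 627 CPM in WT, and Dnmt3a rose in both. So did Fgf5, the classic epiblast ligand (6.37 ± 0.40 in KO and 4.17 ± 0.34 in WT), and Lef1. From day 3 to day 5, 10 fell and 2 rose in MUT and 11 fell and none rose in WT70. Over all tested genes 8.59% fell and 8.8% rose in MUT, and 7% fell and 5.25% rose in WT70.
Against WT, 5 of the 18 were higher and 2 lower in KO on day 4, and 3 were higher and 4 lower on day 5, with medians of 0.27 and 0.18. The background was 3.4% higher and 4.28% lower on day 4, and 5.99% higher and 5.73% lower on day 5. Sox3, a neural and epiblast SOX gene, was lower on day 5 (−2.65 ± 0.21, means of 11.2 CPM in KO and 69.7 CPM in WT), as was Zic5 (−2.19 ± 0.14), and the claudin gene Cldn6 was higher (1.88 ± 0.09, means of 207 CPM in KO and 56.2 CPM in WT).

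The naive pluripotency genes, 14 in the list, mostly fell on the first day. From day 0 to day 1, 11 of 14 fell in KO and 12 of 14 in WT, and none rose. Over all tested genes 10.4% fell in KO and 7.96% in WT. Klf4, at −6.16 ± 0.70 in KO and −6.15 ± 0.72 in WT, fell the most of the 4 genes with the smallest p, and Esrrb, Nanog and Tfcp2l1 fell in both. Their summed level was 987 to 1150 CPM on day 1 and 5890 to 6010 CPM on day 0 in KO, and 755 to 824 CPM on day 1 and 5430 to 5630 CPM on day 0 in WT. In the same step the sum of the 10 formative and primed genes was 3810 to 3840 CPM on day 1 and 1740 to 1830 CPM on day 0 in KO, and 2920 to 3860 CPM on day 1 and 2150 to 2230 CPM on day 0 in WT. Of the 14 naive genes, 4 were higher in KO than in WT when day 3 was compared, the sums being 313 to 393 CPM for KO and 164 to 211 CPM for WT. The background of that comparison was 2.09% higher and 1.87% lower. The list includes Nanog, which the paper also names as a primitive streak marker.

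Of the partners of Lin28 in the let-7 pathway, 11 in the list, 2 were higher in KO and none lower on day 5, with a background of 5.99% higher and 5.73% lower and a median of 0.07. These were Arid3a (1.17 ± 0.09, means of 157 CPM in KO and 69.6 CPM in WT) and Hmga2, a let-7 target (1.08 ± 0.14, means of 473 CPM in KO and 224 CPM in WT). Trim71 (−0.31 ± 0.08) and Tut4 (0.42 ± 0.09), the uridylyltransferase that LIN28A recruits, did not pass. Hmga2 was also higher in KO on day 2 (1.53 ± 0.18) and day 4 (1.04 ± 0.17), and none of the 11 passed on days 0, 1 and 3. Between MUT and WT70 none passed on either day.

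Among relatives of the 10 genes, those with the smallest p are given. In the Pim family, Pim1 and Pim3 fell from day 0 to day 1 in KO (−2.45 ± 0.25 and −2.65 ± 0.20) and in WT (−2.70 ± 0.25 and −2.89 ± 0.21), the step in which Pim2 rose. Pim3 had mean levels of 26.3 CPM on day 1 and 193 CPM on day 0 in KO, and 22.0 and 191 CPM in WT. In the SALL family, Sall1 was higher in KO than in WT on day 5 (1.62 ± 0.09, means of 334 CPM in KO and 109 CPM in WT) while Sall2 was lower. Among POU genes, Pou3f2, a neural POU factor, was lower in KO on day 4 (−3.13 ± 0.80) and on day 5 (−3.73 ± 0.59, means of 0.649 CPM in KO and 10.8 CPM in WT). Of the 14 relatives, 4 were higher and 3 lower in KO on day 5, with a background of 5.99% higher and 5.73% lower.

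The genes most like each of the 10 were sought among all tested genes with a symbol by the Pearson correlation of log2 CPM over the 36 libraries. These libraries share lines, days and experiments, so the values are descriptions. Pou3f1 was most like Pim2 (r = 0.97, Spearman's rho = 0.896), and Pim2 in turn was most like Jph4 (r = 0.97) and Pou3f1. Utf1 was most like the Polycomb genes Phc1 (r = 0.988) and Cbx7 (r = 0.986), Pou5f1 like Slc25a5 (r = 0.973) and L1td1 (r = 0.971), and Foxd3 like Slc23a2 (r = 0.973) and Txnrd1 (r = 0.972). Slc7a3 was most like Foxi3 (r = 0.971) and Wipi2 (r = 0.956). For Otx2, Sall2 and Lin28a the rank correlations were lower. Otx2 was most like Ror1 (r = 0.97, rho = 0.646), Sall2 like Gmfb (r = 0.96, rho = 0.769) and Fads2 (r = 0.935, rho = 0.418), Lin28a like Sox4 (r = 0.888, rho = 0.671) and Pcbp4 (r = 0.886, rho = 0.771), and Lin28b like Tcp11l1 (r = 0.956) and Slitrk5 (r = 0.935).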

How the data were processed

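RNA was measured by poly(A) sequencing in 36 libraries. Reads went through Trim Galore 0.6.4 and then Salmon 0.14.1 with GENCODE mouse transcripts (mm10), and the authors summed the estimates per gene with tximport in R 4.0.2. The deposited expected counts are these sums, unscaled between libraries, and 73.8% of the values were exactly whole. The deposited TPM values, which the authors corrected for transcript length, were used for levels between genes and in 1 alternative. Whether the quantification used strand is not given in the sources used here, and Salmon shares reads among near-identical copies by estimate, so genes with antisense partners or retrocopies are uncertain to that degree. No per-sample column was left without a sample.

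Expected counts were rounded, filtered (minimum count 10, minimum total 15) and fitted with edgeR 4.0.16 in R 4.3.3: 36 libraries, 16 group means, a term for experiment 2 and 19 residual degrees of freedom, with the quasi-likelihood F test and Benjamini-Hochberg adjustment over 21601 genes. Every adjusted p in the text is from this test unless another tool is named. The SE was derived from the F value. CPM are counts per 1e6, scaled by TMM factors. Depth was 10139521 to 26307363 counts per library, and intervals cover counting error only. The test was tested on simulated data first. Positions, biotypes and UTRs came from GENCODE M21, a release other than the authors', and promoters and let-7a from RefSeq (GRCm38.p6).

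The cell lines are the pairing between days, since the same clones stood in each day. Deviations of same-line libraries from their group means correlated between days at −0.0729 to 0.0748, over 11 pairs of days. The 10 genes and the 9 lists were chosen with earlier results of these data known. All 10 genes were tested in each comparison, and in several comparisons only some of them are named in the text. From a list, up to 4 genes with the smallest p are named, and up to 2 genes of likeness per member, with predicted genes left out and 1 gene not reported here. Alternatives were RLE factors, no filter, no experiment term, the line block, compared libraries only, 1 experiment alone, summed libraries, a fold threshold of 1.5, DESeq2 1.42.0, limma 3.58.1 on log2(TPM + 1) with a pseudocount of 1 (genes at 1 TPM or more in 2 libraries), other WT controls, and leaving out each library. The WT70 controls of KO and the comparison of WT70 with WT were added after seeing the data.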

Additional observations from a re-analysis of the deposited data

Results flagged for a closer look

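The change from day 3 to day 5 differed between KO and WT, by the test of the difference, in Pou5f1 (−2.15 on the log2 scale), Pou3f1 (−1.06), Utf1 (−1.53) and Pim2 (−1.85). The KO effect differed from the MUT effect on day 3 in Foxd3 (−1.36), and on day 5 in Pou5f1 (−1.94), Otx2 (1.80), Pou3f1 (−2.42), Utf1 (−1.63), Pim2 (−1.96) and Slc7a3 (−1.18). In these the MUT effect was taken against the single WT70 library of each day. With WT7 and WT34 as controls of both, the day 3 value of Foxd3 was 0.14. On day 5 the values were −0.79 for Pou5f1, 0.81 for Otx2, −0.75 for Pou3f1, 0.26 for Utf1, −0.78 for Pim2 and 0.06 for Slc7a3. None of these passed. Of the 20 sets of 4 libraries on day 3 (the 10 genes in KO and in WT), none had a library farther from the others than Dixon's 95% limit. Each set held 2 libraries of experiment 1 and 2 of experiment 2. A limit for 1 outlying library cannot show a split between the experiments, such as that of Foxd3.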

How the results depend on the processing

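Over 356 recounts of how many of the 10 genes passed, 322 stayed within 1.5 times the reported count. A fold threshold of 1.5 gave 0 for KO against WT on days 0 and 3, 0 for MUT against WT70 on day 5, 2 for WT and 3 for KO from day 4 to day 5, and 0 for the KO effect minus the MUT effect on day 3. Limma gave 0 for KO against WT on day 0, 0 for MUT against WT70 on day 5, 1 for WT from day 1 to day 2, 3 for KO from day 4 to day 5, 2 for the KO change minus the WT change, and 0 for the KO effect minus the MUT effect on day 3. DESeq2 gave 0 for MUT against WT70 on day 5. Without the experiment term the counts were 0 for MUT against WT70 on day 5, 5 for WT from day 3 to day 4 and 0 for the KO effect minus the MUT effect on day 3, and with summed libraries 5 for WT from day 3 to day 4. The cell line as replicate block, the pairing of the days, gave 0 for MUT against WT70 on day 5, 4 for WT from day 3 to day 4 and 5 for the KO change minus the WT change, and changed no other call of the 10 genes.

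With WT7 and WT34 as controls of MUT the counts were 1 (day 3) and 5 (day 5), and the KO effect minus the MUT effect had 0 (day 3) and 1 (day 5). With all WT lines as controls of MUT that difference had 0 on day 3. Signs turned with WT7 and WT34 as controls of MUT for Foxd3 on days 3 (−1.33) and 5 (−1.80), Pou5f1 (−1.14) and Pou3f1 (−1.21) on day 5, and, in the KO effect minus the MUT effect, Foxd3 on day 3 (0.14), Slc7a3 (0.061) and Utf1 (0.26) on day 5. With WT70 as control of KO the counts were 0 (day 3), 3 (day 5) and 2 (change), with signs turned for Foxd3 on days 3 (0.31) and 5 (3.00) and for the change of Utf1 (0.081) and Pou3f1 (0.31). With all WT lines as controls of KO the day 3 count was 0. For these other controls the share of all tested genes that passed is not given here. The cause was not tested.

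Leaving out 1 library gave 0 to 1 for KO against WT on day 0, 0 to 0 for MUT against WT70 on day 5, and 0 to 1 for the step from day 1 to day 2 in KO and in WT. The other counts moved by at most 1, and no called value turned its sign among the 1200 values of single genes. Of the 340 peak days, 11 moved, among them in TPM Pou5f1 in KO and Pim2 in WT to day 3 and Otx2 in WT to day 4. WT70 has 1 library a day, day 4 lies in 1 experiment, and Foxd3 on day 5 rests on at most 12 counts a library. The step from day 0 to day 1 could not be fitted from its own libraries or within 1 experiment. Over all tested genes the number passing ran over the alternatives between 983 and 3113 (2532 reported) for KO against WT on day 5, 770 and 1861 (1660) on day 4, 255 and 1093 (856) on day 3, 45 and 333 (133) on day 2, 5 and 487 (137) on day 1 and 69 and 377 (187) on day 0, 14 and 674 (32) for MUT against WT70 on day 3 and 150 and 1857 (405) on day 5, 970 and 2264 (2036) for the KO change minus the WT change, and 42 and 1083 (85) and 351 and 2565 (782) for the KO effect minus the MUT effect on days 3 and 5. Of 356 such recounts, 271 stayed within 1.5 times the reported number.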

Other observations

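Marker lists of other cell types were summed as a description. Such a sum in bulk RNA does not show that the cell type was present. The 7 neural crest markers, a later site of Foxd3 expression, summed to 83.1 to 117 CPM in KO, 85.5 to 91.6 CPM in MUT, 95.3 CPM in WT70 and 34.0 to 82.4 CPM in WT on day 5, the day when Foxd3 was nearly gone. In KO on day 5, 2 of the 7 were higher and 2 lower than in WT, with Snai2 (2.30 ± 0.33) and Sox9 (1.17 ± 0.18) higher and Pax7 (−2.51 ± 0.58) and Tfap2b (−1.92 ± 0.68) lower. The background was 5.99% higher and 5.73% lower. The 7 feeder fibroblast markers summed to 81.0 to 105 CPM in KO and 99.5 to 106 CPM in WT on day 0, with none passing between them. Of 5 visceral endoderm markers, a tissue that also expresses Otx2, 4 were tested. They summed to 11.8 to 56.0 CPM in KO, 59.7 to 104 CPM in MUT, 29.9 CPM in WT70 and 5.22 to 29.3 CPM in WT on day 5, where only Ttr passed between KO and WT (2.87 ± 0.87).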
